A study of Homo sapiens with 9 samples.

Results

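Transcripts of 34 genes that serve the Fanconi anemia pathway and repair by homologous recombination were examined among the 27407 features of a table of RNA sequencing counts. A gene was taken when its symbol in the table was on the list. By symbol 33 genes were found, and MRE11A was found as MRE11 through its RefSeq synonym. All 34 passed the filter on low counts. The cells of every library are labelled Weri-RB1/CRP, the name of a carboplatin-resistant derivative of a human retinoblastoma line. This identity rests on the label alone. The marker genes given below do not bear it out, so it is uncertain. Each of 3 groups had 3 libraries: cells with hairpin shSNHG1#1, cells with hairpin shSNHG1#2, both designed to lower the long noncoding RNA SNHG1, and cells with the control hairpin shNC. By the labels, all 3 groups thus carry a hairpin and the resistant background. No label mentions the parental line, carboplatin in the culture or whether the cells are a single clone. SNHG1 itself was not analysed here, so the lowering of SNHG1 is known from the labels only.

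Carboplatin is a platinum compound that joins bases of DNA, and a crosslink between the strands blocks a replication fork. The Fanconi core complex with its partner enzyme UBE2T attaches ubiquitin to FANCD2 and FANCI, which directs nucleases to cut out the crosslink. The break left behind is trimmed to single-stranded DNA, prepared for strand exchange with the help of BRCA2 and other mediators, and repaired from the sister chromatid. Many of these genes are most transcribed in cells that replicate their DNA, so their levels are known to follow the cell cycle.

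Libraries held 21502093 to 21606498 estimated counts. A single feature without a gene name took 11.8 to 13.5% of the counts in libraries of either SNHG1 hairpin and 6.57 to 7.09% in shNC libraries. FPKM is a level scaled to transcript length and to the library's total, without the TMM scaling used for the tested counts. Defining genes of the labelled tissue were largely absent: of 17 photoreceptor and retinoblastoma genes in the table, 14 stayed below 1 FPKM in every library, CRX did not exceed 0.03 FPKM, and the summed level was 31.8 to 33.6 FPKM with shSNHG1#1, 33.0 to 34.3 with shSNHG1#2 and 34.9 to 35.8 in shNC. Of 9 epithelial genes 2 stayed below 1 FPKM everywhere, and the sum was 2160 to 2340 FPKM with shSNHG1#1, 2210 to 2340 with shSNHG1#2 and 2230 to 2250 in shNC. Of the 8 tested, 3 rose and 3 fell with shSNHG1#1 (24.5% and 23.5% of all tested features). With shSNHG1#2, 4 rose and 4 fell (23.3% and 22.8%). CLDN4 rose 1.99-fold and 1.9-fold, and KRT19 fell 1.66-fold and 1.44-fold. Of 12 fibroblast and blood genes, 5 stayed below 1 FPKM everywhere, and the sum was 88.1 to 115 FPKM with shSNHG1#1, 125 to 128 with shSNHG1#2 and 271 to 288 in shNC, most of it from CD68. Without CD68 the other 11 summed to 24.8 FPKM in shSNHG1#1 replicate 1, where the matrix gene DCN stood at 9.80 FPKM, against 2.64 to 4.95 FPKM in the other 8 libraries. Counts with shSNHG1#1 were therefore also made without this library, and the part of these genes in the results was not tested.

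Most of the 34 genes were higher with either hairpin than in shNC. With shSNHG1#1, 29 passed the test, beside 48.1% of all tested features, and with shSNHG1#2, 29 passed, beside 46.2%. With shSNHG1#1, 24 rose, where 24.5% of all 18767 tested features rose, and 5 fell, where 23.5% of features fell (edgeR's quasi-likelihood test, Benjamini-Hochberg adjusted p below 0.05). With shSNHG1#2, 22 rose against a background of 23.3%, and 7 fell against 22.8%. Scaled by library totals alone the split was 24 higher and 3 lower with shSNHG1#1, and 26 higher and 2 lower with shSNHG1#2. Under that scaling 9083 and 8770 of all features passed in either direction. Their split by direction was not counted, so the split of the 34 has no background there. The median log2 fold change of the 34 was 0.34 and 0.31, beside 0.02 and 0.01 over all tested features. Without shSNHG1#1 replicate 1, 23 rose and 3 fell with that hairpin, where 21.3% and 22.1% of features did. Summed over the 34 genes, the level was 298.9 to 311.2 FPKM in shSNHG1#1 libraries, 305.3 to 315 FPKM in shSNHG1#2 libraries and 241.8 to 247.2 FPKM in shNC libraries, with no overlap between either hairpin and shNC. More RNA per cell and a larger share of cells that express a gene cannot be told apart in bulk samples. Library by library, on scaled counts, the 3 shSNHG1#1 values lay apart from the 3 shNC values in 30 genes (56.3% of features), 24 higher (29%) and 6 lower (27.4%). Without shSNHG1#1 replicate 1 these were 25 (31.5%) and 6 (31.2%). With shSNHG1#2 they lay apart in 32 genes (55.8% of features), 25 higher (28.3%) and 7 lower (27.4%). Past the threshold in 1 direction with both hairpins were 27 genes (40% of features): 22 rose (20.3%) and 5 fell (19.7%), and these comparisons share the shNC libraries. Without shSNHG1#1 replicate 1, 21 rose (18.4%) and 3 fell (19.2%) with both. BRIP1, NBN and RBBP8 passed with neither.

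**Figure D1:**
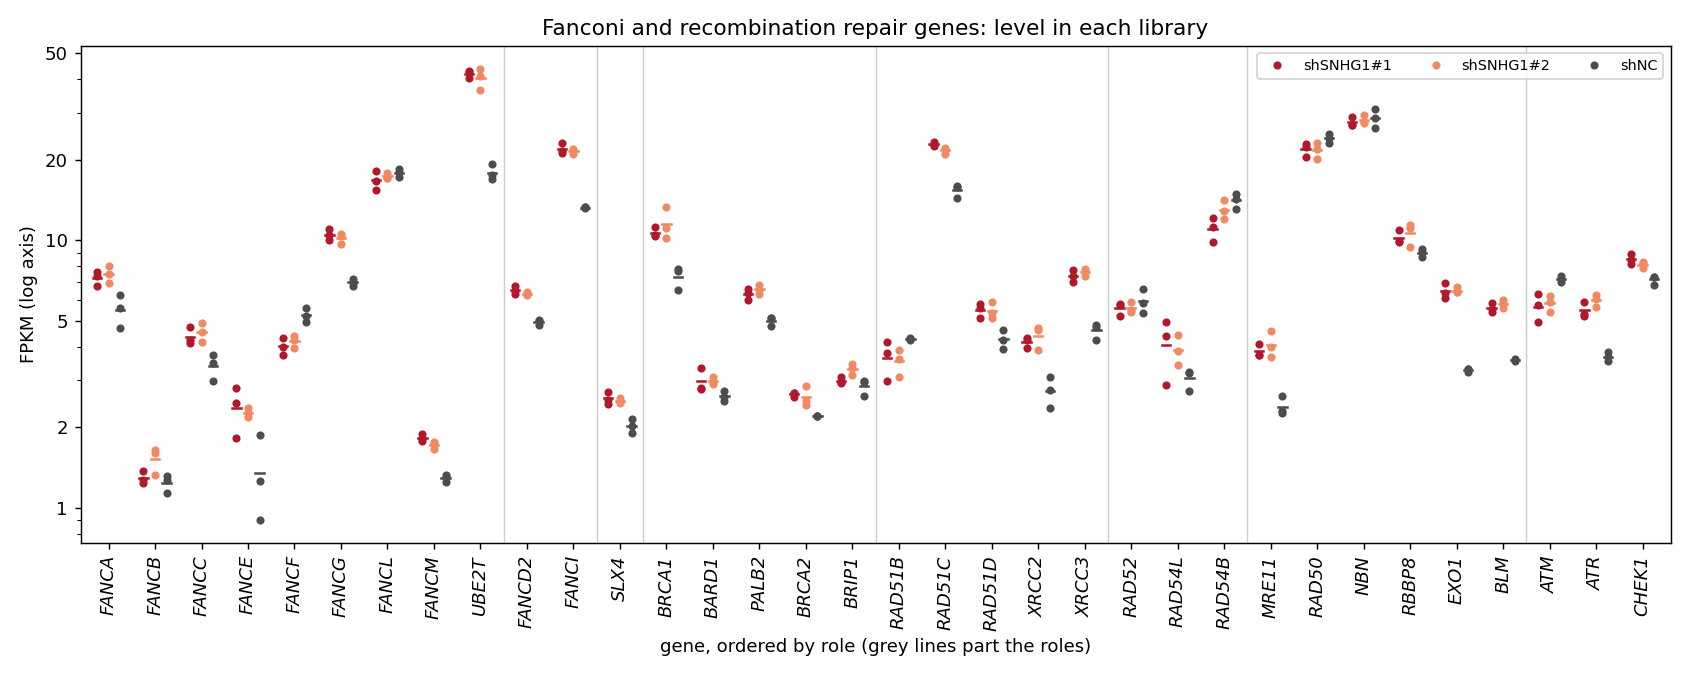
Level of each of the 34 repair genes in every library, in FPKM on a log axis, with genes ordered by role along the horizontal axis. Points are libraries and short bars are means of 3 libraries; UBE2T stands at 36.5 to 43.9 FPKM in the libraries of both SNHG1 hairpins, above 17.02 to 19.2 FPKM in shNC, while NBN overlaps across the 3 groups.

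**Figure D2:**
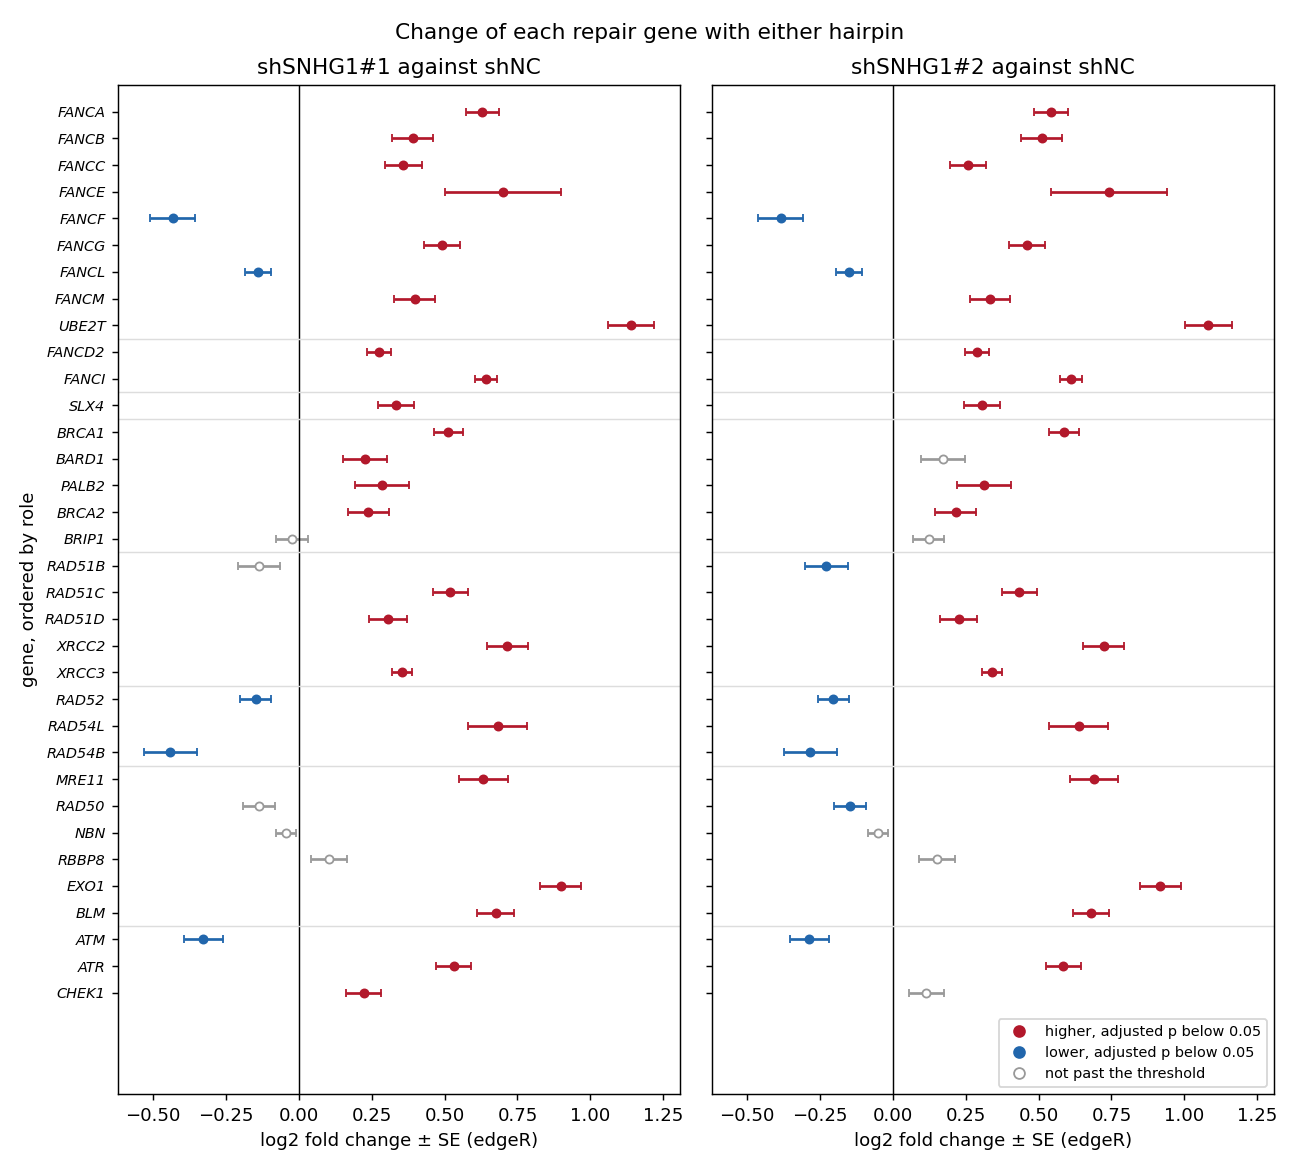
Log2 fold change of each gene with shSNHG1#1 (left) and shSNHG1#2 (right) against shNC, with bars for the standard error of edgeR's fit and filled points past the adjusted threshold. UBE2T and EXO1 lie farthest to the right in both panels, and FANCF, FANCL, RAD52, RAD54B and ATM are lower in both.

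The promoters of the 4 genes with the highest mean change among those that rose with both hairpins are shown because these genes moved together. They span 250 bases before to 50 bases after the start in RefSeq on GRCh38.p14, and capitals mark letters searched on both strands. These were the E2F-type letters TTTGGCGC, TTTCCCGC, TTTCGCGC and TTTGCCGC, the cell cycle homology letters TTTGAA, the NF-Y letters CCAAT and the hypoxia-type letters ACGTG, which share no bases with each other in these windows. UBE2T lies at chr1:202341887-202342186 on the minus strand, the first of 2 listed starts of EXO1 at chr1:241847954-241848253 on the plus strand, FANCE at chr6:35452088-35452387 on the plus strand and XRCC2 at chr7:152676092-152676391 on the minus strand.
UBE2T: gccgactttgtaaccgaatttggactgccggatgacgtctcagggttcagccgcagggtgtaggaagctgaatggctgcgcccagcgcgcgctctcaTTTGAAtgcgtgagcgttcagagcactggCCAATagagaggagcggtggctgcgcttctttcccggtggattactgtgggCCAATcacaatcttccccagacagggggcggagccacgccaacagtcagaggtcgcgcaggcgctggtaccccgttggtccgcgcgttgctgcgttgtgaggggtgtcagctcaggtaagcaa
EXO1: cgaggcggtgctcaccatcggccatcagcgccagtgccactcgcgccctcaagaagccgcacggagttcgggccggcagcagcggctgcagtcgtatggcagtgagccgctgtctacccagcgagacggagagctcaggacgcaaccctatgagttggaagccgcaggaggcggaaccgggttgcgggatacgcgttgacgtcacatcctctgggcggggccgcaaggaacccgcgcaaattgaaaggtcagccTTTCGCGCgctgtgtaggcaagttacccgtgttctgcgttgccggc
FANCE: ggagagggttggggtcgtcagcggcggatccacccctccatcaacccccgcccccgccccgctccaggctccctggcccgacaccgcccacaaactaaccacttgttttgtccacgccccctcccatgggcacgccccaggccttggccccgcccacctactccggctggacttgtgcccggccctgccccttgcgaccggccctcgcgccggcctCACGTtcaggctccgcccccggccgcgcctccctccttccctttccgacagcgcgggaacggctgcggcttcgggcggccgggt
XRCC2: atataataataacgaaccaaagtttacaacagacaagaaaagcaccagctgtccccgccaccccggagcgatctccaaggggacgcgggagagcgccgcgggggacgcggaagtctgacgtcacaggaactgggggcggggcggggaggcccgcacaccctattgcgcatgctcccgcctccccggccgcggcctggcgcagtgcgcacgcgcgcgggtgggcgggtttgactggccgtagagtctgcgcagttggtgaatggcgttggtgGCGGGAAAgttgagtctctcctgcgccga
UBE2T held TTTGAA once and CCAAT 2 times, EXO1 and XRCC2 each held 1 E2F-type match, and FANCE held 1 hypoxia-type match. RefSeq promoters were matched for 31 of the 34 genes, 43 windows in all. None was matched for FANCI, which rose with both hairpins, RAD54B, which fell with both, or NBN. Windows at different starts of a gene were counted separately, and some of them overlap. E2F-type letters occurred in 5 of 27 windows (18.5%) of genes that rose with both hairpins, in 0 of 6 windows of genes that fell with both, in 0 of 10 windows of the other genes, thus in 5 of 43 (11.6%) over the list, and in 3.31% of all 35116 windows. The other 3 windows of rising genes with such letters belong to FANCA, FANCC and FANCD2. CCAAT stood in 37.0% of windows of rising genes and in 34.6% of all windows, TTTGAA in 7.41% and 15.2%, and ACGTG in 29.6% and 21.4%. Such a match is a description of the letters and not of binding.

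Among the 9 genes of the core complex and its partner enzyme, 7 rose with each hairpin (24.5% and 23.3% of features) and 2 fell (23.5% and 22.8%). The share that fell, 22.2%, is near that of all features. Without shSNHG1#1 replicate 1, 6 rose and 1 fell with shSNHG1#1, where 21.3% and 22.1% of features did. UBE2T, the ubiquitin-conjugating enzyme of the pathway, stood at 40.4, 43.0 and 42.4 FPKM in shSNHG1#1 libraries, at 43.9, 36.5 and 41.2 FPKM in shSNHG1#2 libraries and at 17.5, 19.2 and 17.02 FPKM in shNC libraries. All 6 hairpin libraries were above every shNC library. UBE2T rose by a log2 fold change of 1.14 (SE 0.08, adjusted p = 7.63e-07) and 1.08 (SE 0.08, adjusted p = 1.43e-06), which is 2.2-fold and 2.12-fold. It had the largest change of the 34 genes with either hairpin. FANCA, a scaffold subunit, had 6.73, 7.33 and 7.63 FPKM with shSNHG1#1, 7.45, 8.03 and 6.92 FPKM with shSNHG1#2 and 4.69, 6.24 and 5.59 FPKM in shNC, again without overlap. It rose 1.55-fold and 1.46-fold. FANCE, which contacts FANCD2, was among the lowest of the set, with 2.81, 1.82 and 2.46 FPKM under shSNHG1#1, 2.36, 2.18 and 2.26 FPKM under shSNHG1#2 and 0.90, 1.26 and 1.87 FPKM in shNC. In FPKM the lowest shSNHG1#1 library lay below the highest shNC library, while by scaled counts these groups lay apart. FANCE rose 1.62-fold and 1.67-fold, with the widest standard error of the set (0.20 on the log2 scale). Its call with shSNHG1#1 was lost without shNC replicate 1 (adjusted p = 0.0577), shNC replicate 2 (0.0554) or shSNHG1#1 replicate 1 (0.0631).

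FANCG, which binds FANCA, averaged 10.5 ± 0.516 FPKM with shSNHG1#1, 10.2 ± 0.486 with shSNHG1#2 and 6.95 ± 0.230 in shNC (SD, n = 3 each) and rose 1.4-fold and 1.38-fold. FANCC, the partner of FANCE, rose 1.28-fold and 1.2-fold. FANCM, the translocase that brings the complex to DNA, rose 1.32-fold and 1.26-fold, averaging 1.82 ± 0.0529 FPKM with shSNHG1#1, 1.72 ± 0.0513 with shSNHG1#2 and 1.29 ± 0.0404 in shNC. FANCB, part of the catalytic module, rose 1.31-fold and 1.43-fold by counts. The subunits that fell were FANCF and FANCL. FANCF, an adaptor subunit, had 3.98, 4.31 and 3.74 FPKM with shSNHG1#1, 3.97, 4.39 and 4.24 FPKM with shSNHG1#2 and 5.56, 4.96 and 5.2 FPKM in shNC. Every hairpin library was below every shNC library, and FANCF fell by 0.43 (SE 0.08, adjusted p = 8.26e-04) and 0.38 (SE 0.08, adjusted p = 0.00195) on the log2 scale. FANCL, the ubiquitin ligase of the complex, had 16.6, 18.2 and 15.4 FPKM with shSNHG1#1, 17.1, 17.9 and 17.1 FPKM with shSNHG1#2 and 18.4, 17.3 and 18.0 FPKM in shNC. Its FPKM values overlapped between groups, and by counts it fell by 0.14 and 0.15 on the log2 scale. The call of FANCL with shSNHG1#1 was lost without shNC replicate 1 (adjusted p = 0.0505), shSNHG1#1 replicate 1 (0.0505) or shSNHG1#1 replicate 3 (0.0773), and with shSNHG1#2 without its replicate 1 (0.0609) or 3 (0.0545). It was also lost by library totals alone (adjusted p = 0.108 and 0.139) and in limma's test on log2(FPKM + 1) (0.219 and 0.586).

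Both subunits of the clamp that receives ubiquitin rose with each hairpin. FANCI stood at 21.2, 21.54 and 23.1 FPKM in shSNHG1#1 libraries, 20.9, 21.7 and 21.9 FPKM in shSNHG1#2 libraries and 13.3, 13.3 and 13.2 FPKM in shNC libraries. The shNC libraries were nearly equal and far below the others, and FANCI had the smallest adjusted p of the 34 genes (log2 fold change 0.64, SE 0.04, adjusted p = 1.47e-07 with shSNHG1#1, and 0.61, SE 0.04, adjusted p = 2.75e-07 with shSNHG1#2). FANCD2 changed less, 1.21-fold and 1.22-fold, averaging 6.49 ± 0.226 FPKM with shSNHG1#1, 6.32 ± 0.1 with shSNHG1#2 and 4.94 ± 0.106 in shNC. SLX4, the scaffold that holds structure-specific nucleases, had 2.52, 2.45 and 2.72 FPKM with shSNHG1#1, 2.46, 2.58 and 2.5 FPKM with shSNHG1#2 and 2.14, 1.90 and 2.02 FPKM in shNC. It lay above every shNC library with both hairpins and rose 1.26-fold and 1.24-fold.

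Of the 5 genes around BRCA1 and BRCA2, 4 rose with shSNHG1#1 (24.5% of features), 3 with shSNHG1#2 (23.3%) and 0 fell in edgeR's test (23.5% and 22.8%). BRCA1, a ubiquitin ligase that promotes recombination, had the highest level and the largest change. It stood at 10.5, 10.4 and 11.2 FPKM with shSNHG1#1, 10.2, 11.2 and 13.3 FPKM with shSNHG1#2 and 7.65, 7.80 and 6.51 FPKM in shNC, with no overlap, and rose 1.43-fold and 1.5-fold. Its partner BARD1 rose 1.17-fold with shSNHG1#1 (adjusted p = 0.0303), and with shSNHG1#2 it was 1.13-fold higher but did not pass (adjusted p = 0.0879). The BARD1 call was lost without shNC replicate 2 (adjusted p = 0.0941), shNC replicate 3 (0.112), shSNHG1#1 replicate 2 (0.126) or shSNHG1#1 replicate 3 (0.0729). It was also lost in DESeq2 (0.0714) and in limma's test on log2(FPKM + 1) (0.151). In edgeR it was lost without a filter beyond 1 count (0.0639), with only the 2 groups compared (0.0524) and with replicate number as a block (0.0538). The BARD1 difference with shSNHG1#2 passed by library totals alone (0.0251). PALB2, which joins BRCA1 to BRCA2, rose 1.22-fold and 1.24-fold. BRCA2, a mediator of recombination, rose 1.18-fold and 1.16-fold to 2.66 ± 0.0493 and 2.59 ± 0.225 FPKM, against 2.21 ± 0.00577 FPKM in shNC. PALB2 lost its call with shSNHG1#1 without shNC replicate 1 (adjusted p = 0.0934), shNC replicate 2 (0.0893) or shSNHG1#1 replicate 2 (0.0947), and with shSNHG1#2 without shNC replicate 1 (0.0692) or 2 (0.0667) or shSNHG1#2 replicate 1 (0.0682) or 3 (0.0504). BRCA2 lost its call with shSNHG1#1 without shNC replicate 2 (0.071) or 3 (0.069), and with shSNHG1#2 without shNC replicate 2 (0.11) or 3 (0.107) or shSNHG1#2 replicate 1 (0.0638) or 3 (0.106). The BRCA2 call with shSNHG1#2 was also lost in limma's test on log2(FPKM + 1) (0.0662) and in edgeR without a filter beyond 1 count (0.0513). With only the 2 groups compared in edgeR, the PALB2 call with shSNHG1#1 was lost (0.0573). BRIP1, a helicase that binds BRCA1, passed with neither hairpin: its log2 fold change was -0.02 (95% interval -0.15 to 0.10) and 0.12 (0.00 to 0.24), and by library totals alone these were 0.02 and 0.19, the second past the threshold (adjusted p = 0.0174).

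RAD51B, RAD51C, RAD51D, XRCC2 and XRCC3 are related proteins that form complexes acting in recombination, and 4 of the 5 genes rose with both hairpins, where 20.3% of features did. XRCC2 changed most. It had 3.97, 4.33 and 4.22 FPKM with shSNHG1#1, 3.88, 4.68 and 4.61 FPKM with shSNHG1#2 and 2.76, 3.07 and 2.35 FPKM in shNC, all 6 hairpin libraries being higher, and rose by a log2 fold change of 0.72 with each (SE 0.07, adjusted p = 1.03e-05 and 1.10e-05). RAD51C, a member of both complexes, had the highest level of the group, with 22.5, 22.8 and 23.4 FPKM under shSNHG1#1, 21.0, 22.2 and 21.8 FPKM under shSNHG1#2 and 15.8, 14.4 and 16.0 FPKM in shNC. It was higher in all 6 hairpin libraries and rose 1.43-fold and 1.35-fold. XRCC3, the partner of RAD51C in the smaller complex, rose 1.28-fold and 1.27-fold by counts. RAD51D rose 1.24-fold and 1.17-fold, and its call with shSNHG1#2 was lost without shNC replicate 2 (adjusted p = 0.0724) or 3 (0.0657). RAD51B alone of the 5 was on the lower side, with 3.8, 2.97 and 4.16 FPKM under shSNHG1#1, 3.08, 3.59 and 3.90 FPKM under shSNHG1#2 and 4.23, 4.33 and 4.29 FPKM in shNC. The shNC values were close together and above all others. By counts RAD51B did not pass with shSNHG1#1 (log2 fold change -0.14, adjusted p = 0.151) and fell by 0.23 with shSNHG1#2 (adjusted p = 0.0257). The call with shSNHG1#2 was lost without shNC replicate 1 (0.0848) or shSNHG1#2 replicate 1 (0.0837). It was also lost by library totals alone (0.109) and in limma's test on log2(FPKM + 1) (0.121).

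RAD52 and the RAD54 translocases went in different directions. RAD54L, which remodels the joint between DNA strands, had 4.95, 2.87 and 4.37 FPKM with shSNHG1#1, 4.42, 3.85 and 3.41 FPKM with shSNHG1#2 and 3.21, 2.73 and 3.19 FPKM in shNC. In FPKM, replicate 2 of shSNHG1#1 lay within the shNC values, while by scaled counts it lay above them. By counts RAD54L rose 1.61-fold and 1.56-fold (adjusted p = 2.08e-04 and 3.85e-04), but on log2(FPKM + 1) it did not pass in limma's test (adjusted p = 0.153 and 0.202). Its relative RAD54B had 9.88, 12.1 and 11.2 FPKM with shSNHG1#1, 14.1, 12.01 and 12.8 FPKM with shSNHG1#2 and 14.3, 13.1 and 14.8 FPKM in shNC. All shSNHG1#1 values were below shNC, while those of shSNHG1#2 overlapped it. RAD54B fell 1.36-fold (adjusted p = 0.00214) and 1.22-fold (adjusted p = 0.0249). The call with shSNHG1#2 was lost without shNC replicate 1 (0.06) or 3 (0.0804) and without shSNHG1#2 replicate 2 (0.106) or 3 (0.0684). It was also lost by library totals alone (0.0652) and in limma's test on log2(FPKM + 1) (0.322). RAD52, which anneals single strands, had 5.80, 5.21 and 5.71 FPKM with shSNHG1#1, 5.41, 5.88 and 5.47 FPKM with shSNHG1#2 and 5.84, 5.33 and 6.55 FPKM in shNC, and the FPKM values of the groups overlapped. By counts it fell 1.11-fold and 1.15-fold. The calls of RAD52 were lost by library totals alone (adjusted p = 0.169 and 0.0699) and in limma's test on log2(FPKM + 1) (0.494 and 0.526). The call with shSNHG1#1 was also lost without shNC replicate 1 (0.0579) or 3 (0.124) or shSNHG1#1 replicate 1 (0.0909) or 2 (0.0796). With only the 2 groups compared in edgeR it was lost as well (0.0576).

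Of 6 genes of end resection, 3 rose with both hairpins, where 20.3% of features did, and the subunits of the MRE11-RAD50-NBN complex, which starts resection, were uneven. MRE11, its nuclease, had 3.71, 4.11 and 3.72 FPKM with shSNHG1#1, 3.66, 4.56 and 3.98 FPKM with shSNHG1#2 and 2.61, 2.27 and 2.29 FPKM in shNC. All hairpin libraries were above shNC, and MRE11 rose 1.55-fold (adjusted p = 9.04e-05) and 1.61-fold (adjusted p = 5.35e-05). RAD50, its ATPase, had 20.6, 22.8 and 22.3 FPKM with shSNHG1#1, 20.1, 21.99 and 23.2 FPKM with shSNHG1#2 and 24.1, 24.96 and 23.1 FPKM in shNC. In FPKM, replicate 3 of shSNHG1#2 lay just above the lowest shNC library, and the values of shSNHG1#1 lay below shNC. By scaled counts the hairpins changed places. Replicate 2 of shSNHG1#1 lay just above the lowest shNC library, while all shSNHG1#2 libraries lay below every shNC library. RAD50 had a log2 fold change of -0.14 with shSNHG1#1, which did not pass (adjusted p = 0.0593), and fell by 0.15 with shSNHG1#2 (adjusted p = 0.0462). The first passed in DESeq2 (0.0138), without shNC replicate 3 (0.0427) or shSNHG1#1 replicate 2 (0.0163). In edgeR it also passed with RLE size factors (0.0458), with only the 2 groups compared (0.0354) and with replicate number as a block (0.0351). The same held without a filter beyond 1 count (0.0466) and with at least 10 counts in every library of a group (0.0438). The second was lost without shNC replicate 1 (0.0726) or 2 (0.129) or shSNHG1#2 replicate 1 (0.168) or 2 (0.109). It was also lost by library totals alone (0.259) and in limma's test on log2(FPKM + 1) (0.0883). NBN, the regulatory subunit, had 27.1, 27.1 and 28.8 FPKM with shSNHG1#1, 27.7, 27.4 and 29.5 FPKM with shSNHG1#2 and 31.0, 26.2 and 28.6 FPKM in shNC, with overlap throughout. It passed with neither hairpin, and the 95% intervals of its log2 fold change were -0.12 to 0.03 and -0.13 to 0.02.

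EXO1, the exonuclease of long-range resection, had 6.08, 6.94 and 6.36 FPKM with shSNHG1#1, 6.66, 6.39 and 6.39 FPKM with shSNHG1#2 and 3.30, 3.21 and 3.29 FPKM in shNC. The groups were far apart, and EXO1 rose by a log2 fold change of 0.90 (SE 0.07, adjusted p = 1.83e-06) and 0.92 (SE 0.07, adjusted p = 1.90e-06), second only to UBE2T among the 34 genes by the mean of both changes. BLM, a helicase of resection and of joint dissolution, had 5.55, 5.41 and 5.85 FPKM with shSNHG1#1, 5.98, 5.83 and 5.58 FPKM with shSNHG1#2 and 3.53, 3.61 and 3.57 FPKM in shNC. It was higher in all 6 hairpin libraries and rose 1.60-fold with each. RBBP8, the CtIP cofactor of the MRE11 nuclease, passed with neither hairpin (log2 fold change 0.10, adjusted p = 0.202, and 0.15, adjusted p = 0.0695). With shSNHG1#2 it passed without replicate 1 of that group (0.0331), by library totals alone (0.0168) and in limma's test on log2(FPKM + 1) (0.0366). In edgeR it also passed with replicate number as a block (0.0436).

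The kinases that sense the damage changed in opposite directions. ATR, which answers to single-stranded DNA at stalled forks, had 5.22, 5.29 and 5.90 FPKM with shSNHG1#1, 6.01, 5.61 and 6.26 FPKM with shSNHG1#2 and 3.66, 3.82 and 3.55 FPKM in shNC. Every hairpin library was higher, and ATR rose 1.44-fold (adjusted p = 2.93e-05) and 1.5-fold (adjusted p = 1.62e-05). ATM, which answers to double-strand breaks, had 4.93, 6.32 and 5.71 FPKM with shSNHG1#1, 5.41, 5.88 and 6.17 FPKM with shSNHG1#2 and 7.34, 7.15 and 6.97 FPKM in shNC. Every hairpin library was lower, and ATM fell 1.25-fold (adjusted p = 0.00195) and 1.22-fold (adjusted p = 0.00465). CHEK1, the kinase that ATR activates, had 8.14, 8.90 and 8.46 FPKM with shSNHG1#1, 8.19, 7.86 and 8.27 FPKM with shSNHG1#2 and 6.82, 7.31 and 7.29 FPKM in shNC. Its FPKM values did not overlap shNC. CHEK1 rose 1.17-fold with shSNHG1#1 (adjusted p = 0.00962), a call lost without shNC replicate 1 (0.0503). With shSNHG1#2 it did not pass (log2 fold change 0.12, adjusted p = 0.142), although it passed by library totals alone (0.026) and in limma's test on log2(FPKM + 1) (0.0225).

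No gene of the 34 passed in shSNHG1#2 against shSNHG1#1, where 3.12% of all features passed in edgeR's quasi-likelihood test. DESeq2 also called 0 of the 34, where it called 974 of all features. At an unadjusted p below 0.05 the count was 1, BRIP1, where 15.7% of features lay below that value. BRIP1 had 3.34, 3.46 and 3.13 FPKM with shSNHG1#2 and 2.93, 3.09 and 2.95 FPKM with shSNHG1#1, a log2 difference of 0.15 (95% interval 0.03 to 0.27, adjusted p = 0.208). RAD54B had the largest difference by size, 0.16 (95% interval -0.05 to 0.36), and FANCE the widest interval (-0.38 to 0.47). In 4 of the 34 genes the libraries of the hairpins did not overlap by scaled counts, where 20.8% of features were so separated: BRIP1 was higher (10.7% of features), and FANCC, RAD51D and RAD52 were lower (10.1%), with shSNHG1#2. A difference between hairpins that misses the threshold does not show that they act alike.

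Counts and FPKM told different sizes for some genes. Dividing each count by its FPKM and by the library total gives the transcript length that the authors' estimate implies. For FANCF this was 3317 to 3326 bases in all 9 libraries, so there both scales change together. XRCC3 implied 7763 to 8667 bases with shSNHG1#1 and 7614 to 8234 with shSNHG1#2, against 9274 to 10727 in shNC. Its FPKM was 1.60 and 1.65 times that of shNC, while its counts rose 1.28-fold and 1.27-fold. FANCB went the other way, with 11115 to 11291 and 10101 to 11269 bases, against 8123 to 9405 in shNC. Its FPKM was 1.04 and 1.23 times that of shNC and did not pass on log2(FPKM + 1) in limma's test (adjusted p = 0.722 and 0.0733), although it rose by counts. On that scale 21 of the 34 genes rose and 3 fell with shSNHG1#1, and 21 rose and 2 fell with shSNHG1#2. Of all 18767 features, 8302 and 7988 passed there in either direction, and their split by direction was not counted. Over the 34 genes, the implied length was shorter than in all shNC libraries with both hairpins for UBE2T, XRCC3 and RAD54B, and longer for FANCB and RAD50. These are 3 and 2 of 34, near the shares of all features, 6.66% shorter and 6.25% longer. How reads were shared among transcripts was not tested.

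**Figure D3:**
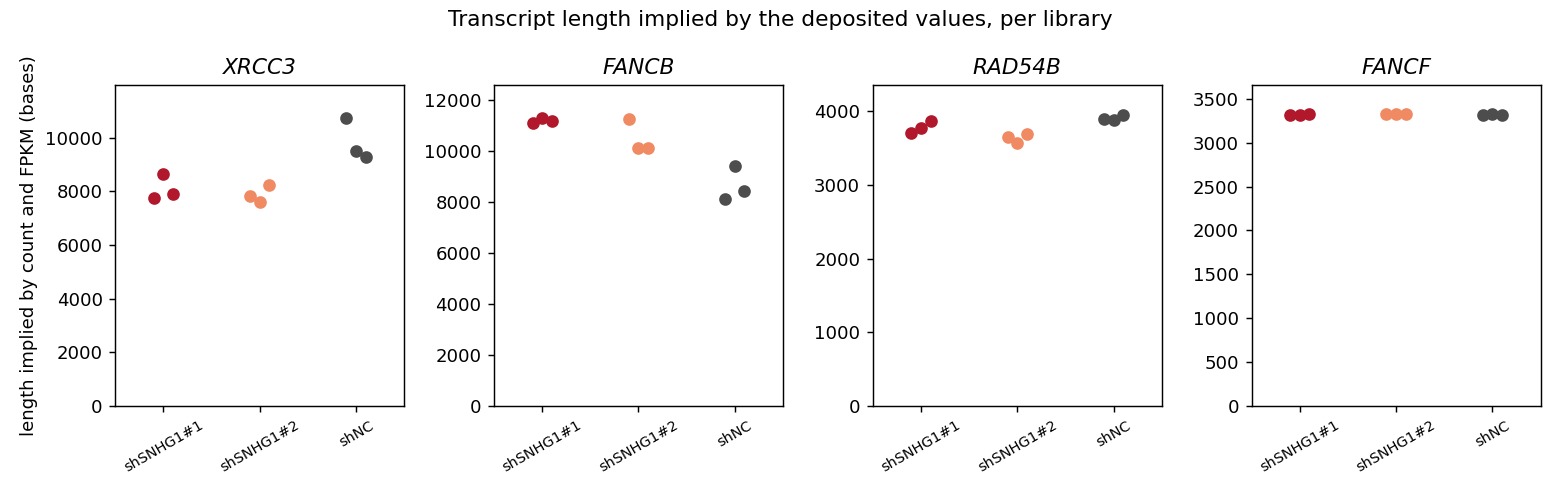
Transcript length in bases implied by the deposited count and FPKM of XRCC3, FANCB, RAD54B and FANCF in each library of the 3 groups. XRCC3 is shorter and FANCB longer in the libraries of both SNHG1 hairpins than in shNC, while FANCF stays between 3317 and 3326 bases.

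Of 71 other genes of crosslink and recombination repair, 39 rose and 9 fell with shSNHG1#1 and 38 rose and 9 fell with shSNHG1#2, with medians of 0.30 and 0.24 on the log2 scale. Over all features 24.5% and 23.3% rose and 23.5% and 22.8% fell. Without shSNHG1#1 replicate 1, 35 rose and 8 fell with that hairpin, where 21.3% and 22.1% of features did. RFWD3, a ubiquitin ligase of the pathway, rose 1.60-fold and 1.63-fold, RPA1, a subunit of the single-strand binding complex, 1.48-fold and 1.41-fold, and H2AFX, the histone marked at breaks, 2.40-fold and 2.33-fold. CDC25A, a phosphatase that drives entry into S phase, rose 3.69-fold to 2.28 FPKM and 3.64-fold to 2.23 FPKM, against 0.60 FPKM in shNC. WEE1, the kinase that restrains entry into mitosis, stood at 9.50 and 9.37 FPKM, against 14.4 FPKM in shNC. Of 13 genes of end joining, the route that ligates breaks without a template, 9 rose and 3 fell with shSNHG1#1 and 7 rose and 2 fell with shSNHG1#2, with medians of 0.19 and 0.27. The 23.1% that fell with shSNHG1#1 is near the 23.5% of all features. XRCC5, which encodes a Ku subunit, rose 1.27-fold and 1.2-fold, the ligase gene LIG4 1.44-fold and 1.47-fold, PRKDC, the kinase that Ku recruits, 1.32-fold and 1.21-fold, and APTX, which cleans DNA ends, 1.34-fold and 1.27-fold. POLL, a gap-filling polymerase, fell 1.39-fold (adjusted p = 1.14e-04) and 1.27-fold (adjusted p = 0.00107).

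Genes of cell division rose beside the repair genes, with higher medians. Of 35 DNA replication genes, 34 rose with shSNHG1#1 and 32 with shSNHG1#2 and 0 fell, beside 24.5% and 23.3% of features that rose and 23.5% and 22.8% that fell, with medians of 0.725 and 0.70. Of 30 mitosis genes, 29 rose with each hairpin and 0 fell, with medians of 0.62 and 0.465. The part of these changes in those of the repair genes was not tested. All 14 hypoxia and glycolysis genes fell with both hairpins, with medians of -2.33 and -1.88. Without shSNHG1#1 replicate 1, 33 of 35 replication genes and 29 of 30 mitosis genes rose with that hairpin, where 21.3% of features did. In the same fit 14 of 14 hypoxia and glycolysis genes fell, where 22.1% of features did.

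**Figure D4:**
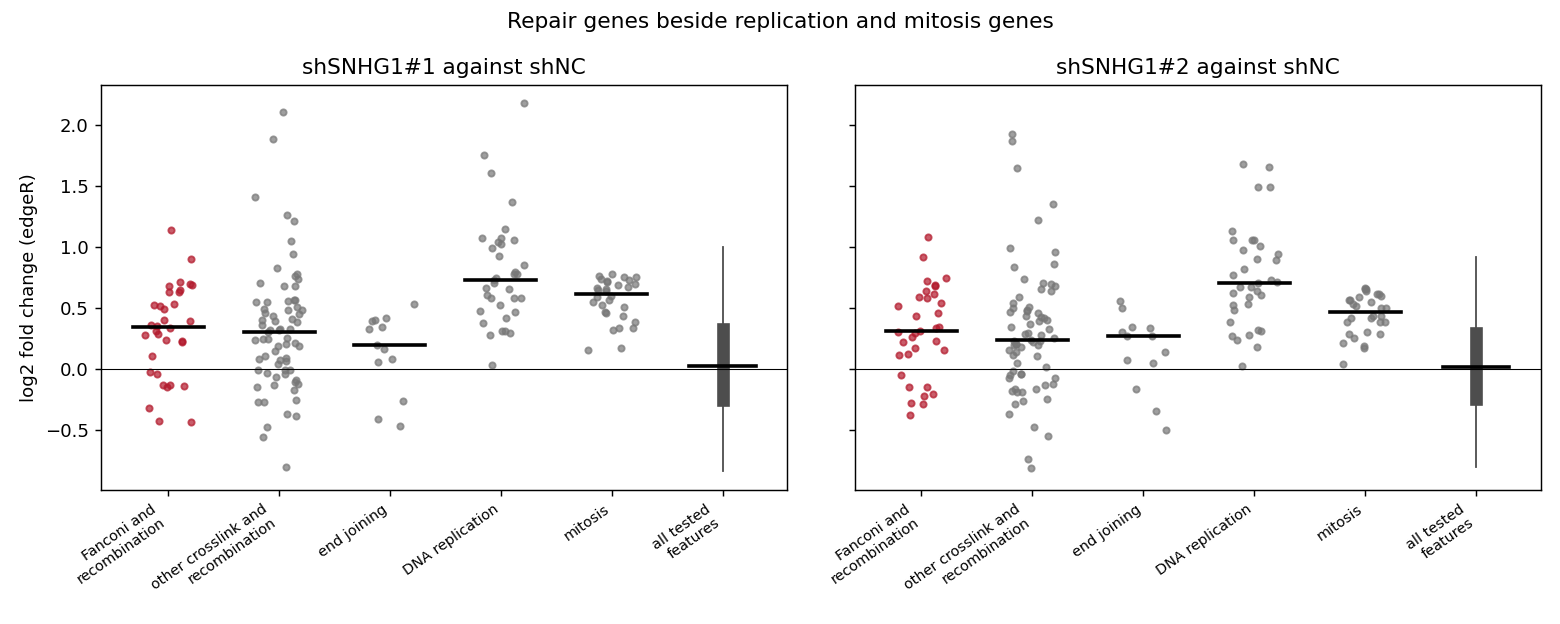
Log2 fold changes against shNC of the 34 repair genes (red) and of 4 other gene lists (grey), 1 point per gene with a black bar at the median; the last column shows the median, quartiles and 5% to 95% range of all tested features. The repair genes have medians of 0.34 and 0.31, below those of DNA replication (0.725 and 0.70) and above those of all features (0.02 and 0.01).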

How the data were processed

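RNA sequencing was done on 9 libraries, 3 for each of 3 groups named in the labels. Columns named 1, 2 and NC, each with r1 to r3, were read as the 2 hairpins and shNC. Per the file headers and values, the authors deposited an estimated count and an FPKM value per feature and library. The header calls the latter only an expression value, and it was read as FPKM because its sum differs between libraries and because count over level implies a length that varied little for most features (median relative SD 2.59% over the 9 libraries for 13460 features of mean 1 or more, upper quartile 5.52%), although some genes varied more. The submitters' processing notes list RSEM 1.2.12, HISAT2 2.0.4, DESeq2 1.4.5 and Bowtie2 2.2.5, without roles. The sources used here give no genome build, annotation or use of strand, so overlapping genes and near-identical copies are uncertain. SNHG1 was not analysed here, so the knockdown is not checked.

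In R 4.3.3, estimated counts were rounded to whole numbers and edgeR 4.0.16 was run on them (TMM scaling, filterByExpr, quasi-likelihood F test on all 9 libraries, 18767 of 27407 features), adjusted by the Benjamini-Hochberg method over all features, threshold 0.05. Standard errors and 95% intervals come from the F statistic. FPKM levels are means ± SD of 3 libraries. Alternatives used limma 3.58.1, DESeq2 1.42.0, other scalings and filters, a replicate block and each library left out. Library totals of 21502093 to 21606498 counts limit the precision of genes with few counts, such as FANCE. Replicates may be technical, as nothing says they were separate cultures, so p-values measure the spread between these libraries. Between replicates of a group, chi-square per degree of freedom was 3.12 to 6.29, more than counting error. The highest values, 6.29 and 5.21, involved shSNHG1#1 replicate 1. Each library was kept as its own sample, and these values do not show that the libraries were separate cultures.

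The 34 genes and the other lists were chosen with earlier results of these data known. Counts by role and list without shSNHG1#1 replicate 1 were chosen after seeing the data. The rule for named genes took all 34, with values in every library for the 10 genes that rose most with both hairpins, those that fell with either and the most abundant of each role. From other lists it took up to 4 genes with the smallest p in each comparison with shNC.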

Additional observations from a re-analysis of the deposited data

How the results depend on the processing

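Among counts of the 34 genes, those passing, rising, or passing with both hairpins in 1 direction stayed within 1.5 times their values under every alternative run, and 0 passed between the hairpins in each. The number that fell depended on the setting. Except without shSNHG1#1 replicate 1, the share of all features that fell was not counted under the alternatives. With shSNHG1#1 it was 5, against 3 by library totals alone, by limma on log2(FPKM + 1), by limma on log2(FPKM + 0.1) and at an adjusted p below 0.01, and 3 to 5 when 1 library was left out. With shSNHG1#2 it was 7, against 2 by library totals alone and by either limma setting, 3 at an adjusted p below 0.01, and 4 to 6 when 1 library was left out. Leaving out each library in turn, 24 to 27 passed and 20 to 23 rose with shSNHG1#1, 25 to 27 passed and 19 to 22 rose with shSNHG1#2, and 22 to 26 passed with both. Of all features, 8051 to 8442 passed with shSNHG1#1 and 7676 to 7852 with shSNHG1#2 when a library of the groups compared was left out. Of 29 calls with each hairpin, 20 (17 higher and 3 lower) and 19 (17 higher and 2 lower) held in every alternative at the 0.05 threshold. The lower ones were FANCF, RAD54B and ATM with shSNHG1#1, and FANCF and ATM with shSNHG1#2. Signs turned only for genes past the threshold in neither comparison with shNC: BRIP1 with shSNHG1#1 (0.022 by library totals alone, 0.054 and 0.07 by limma with pseudocounts 1 and 0.1) and NBN by library totals alone (0.002 with shSNHG1#1 and 0.013 with shSNHG1#2). The cause was not tested.

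Deviations of libraries with the same replicate number correlated at -0.036 to 0.032, and those with other numbers at -0.052 to 0.047. The labels do not say whether equal numbers were paired, and these values, from 3 libraries per group, cannot exclude it. With the number as a replicate block, 29 genes passed with shSNHG1#1 (23 higher, 6 lower), 30 with shSNHG1#2 (23 higher, 7 lower), 28 with both and 0 between hairpins. Of all features, 8752 passed there with shSNHG1#1, 8421 with shSNHG1#2 and 433 between hairpins, in either direction.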
